A study of Saccharomyces cerevisiae with 25 samples.

Results

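Trehalose is a disaccharide of glucose that budding yeast stores as a reserve and as a protectant of proteins and membranes. It is made from UDP-glucose and glucose 6-phosphate by a synthase, Tps1, and a phosphatase, Tps2, which work in a complex with the regulatory subunits Tps3 and Tsl1, and it is split into glucose by the neutral trehalases Nth1 and Nth2 and the acid trehalase Ath1. The last step of synthesis releases inorganic phosphate, and the stored sugar is known to build up in yeast cells that stop growing. The 7 genes of these enzymes and subunits, TPS1, TPS2, TPS3, TSL1, NTH1, NTH2 and ATH1, were chosen by name from 6650 named genes, of which 5718 had a value in at least 1 library. All 7 were listed in all 25 libraries.

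The libraries came from Saccharomyces cerevisiae of the BY4741 background carrying delta-vip1 and pho84pr-YFP, a fluorescent reporter under the PHO84 promoter. VIP1 encodes an inositol pyrophosphate kinase. Both alleles were present in every library, the high-phosphate one included, and no strain with intact VIP1 was analysed here, so none of the changes below can be assigned to the deletion. Cells were grown in medium high in phosphate (0 min, 1 library), washed and moved to medium with none, and 24 libraries followed at steps of 15 min over 6 hours. Those 24 are called early (15 to 120 min), middle (135 to 240 min) or late (255 to 360 min), which puts 8 libraries in each window. Each time has 1 library and no separate cultures are named, so the tests read only scatter between libraries. For windows that is the scatter about a smooth course. For steps it is the scatter about the mean of each stretch, any trend inside the stretch included, and for ratios libraries were permuted between windows. Everything measured against high phosphate rests on the single 0 min library.

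Depth was 413033 reads (345 min) to 4162690 reads (165 min). Levels are given in RPM, a gene's reads scaled to 1000000 per library. Reads were assigned to VIP1, the gene labelled as deleted, in 25 libraries, at levels from 9.69 to 55.7 RPM, and the labels do not say which part of it was removed. Of the genes that BY4741 lacks, HIS3, LEU2 and MET17 were listed in 0 libraries and URA3 in 8. Values are shares of a library. The share taken by the 132 genes for ribosomal proteins was 32.0% at 0 min and 4.28% to 5.08% late, while the median gene moved up. For that reason the median over all genes is given for comparisons of windows, with high phosphate or each other, and for steps in which members passed. The text also says where centring each library on its median ends a call. In RNA from a whole culture, a change in every cell and a change in the mix of cells cannot be told apart.

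The promoters of the paralogs are shown first because results below compare the genes of each pair. Stress-response elements, which the transcription factors Msn2 and Msn4 bind, were searched as AGGGG on both strands in 300 bases lying 400 to 101 bases before the annotated start codon (RefSeq, R64), and are in capitals. Each line gives the sequence in the direction of the gene.
TSL1, chrXIII:70224-70523, plus strand: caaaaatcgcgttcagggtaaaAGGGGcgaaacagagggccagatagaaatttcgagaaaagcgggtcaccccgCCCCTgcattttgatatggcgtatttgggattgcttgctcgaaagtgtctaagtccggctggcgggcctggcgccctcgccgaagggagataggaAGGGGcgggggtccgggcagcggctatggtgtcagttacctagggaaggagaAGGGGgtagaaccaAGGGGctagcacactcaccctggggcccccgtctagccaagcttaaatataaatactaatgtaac
TPS3, chrXIII:793470-793769, minus strand: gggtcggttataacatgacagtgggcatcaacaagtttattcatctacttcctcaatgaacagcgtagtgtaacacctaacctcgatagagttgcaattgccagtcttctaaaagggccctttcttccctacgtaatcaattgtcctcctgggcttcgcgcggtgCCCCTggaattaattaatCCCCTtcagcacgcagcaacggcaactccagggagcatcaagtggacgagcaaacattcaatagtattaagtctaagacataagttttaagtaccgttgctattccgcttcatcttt
NTH1, chrIV:452576-452875, minus strand: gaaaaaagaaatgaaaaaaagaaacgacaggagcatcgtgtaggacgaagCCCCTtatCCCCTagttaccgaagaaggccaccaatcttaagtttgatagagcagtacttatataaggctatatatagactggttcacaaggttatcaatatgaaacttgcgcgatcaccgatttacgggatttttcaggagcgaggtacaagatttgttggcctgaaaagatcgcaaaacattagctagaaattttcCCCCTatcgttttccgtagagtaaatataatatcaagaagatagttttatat
NTH2, chrII:241384-241683, minus strand: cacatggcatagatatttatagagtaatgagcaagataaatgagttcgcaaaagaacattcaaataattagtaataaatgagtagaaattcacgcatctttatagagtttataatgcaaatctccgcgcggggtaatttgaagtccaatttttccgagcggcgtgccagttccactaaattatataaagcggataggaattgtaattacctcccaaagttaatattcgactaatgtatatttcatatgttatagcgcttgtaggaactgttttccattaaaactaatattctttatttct
TSL1 held 5 matches and its paralog TPS3 held 2. NTH1 held 3 and its paralog NTH2 held 0. Of the members not printed, TPS1 held 5, TPS2 1 and ATH1 1. Among the same windows of 6001 genes, 23.5% held at least 1 match, 4.12% at least 2 and 0.817% at least 3. Over the 800 bases next to the start codon the counts were 6 for TPS1, 6 for TSL1, 5 for TPS2, 3 for NTH1, 2 for TPS3, 1 for NTH2 and 1 for ATH1, and 48.2% of 5997 genes held a match. The core of the Pho4 site, CACGTG, which is its own reverse complement, was found in 0 of the 7 windows of either length, against 4.55% of all genes in the shorter window and 9% in the longer. A match is a run of letters, not a bound site, and its part in the changes below was not tested.

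TPS1 (YBR126C, chromosome II, 488905 to 490392) encodes trehalose 6-phosphate synthase. It stood at 104 RPM at 0 min. The early libraries lay between 105 and 187 RPM with a median of 123, the middle ones between 162 and 581 with a median of 285, and the late ones between 365 and 712 with a median of 597. All 24 libraries without phosphate were above the 0 min value, and all late libraries were above all early ones. Here and for the members below, the share of all genes without overlap between late and early values was not counted. From 195 min on, TPS1 stayed at least 1 log2 unit above 0 min.

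TPS2 (YDR074W, chromosome IV, 593893 to 596583) encodes the phosphatase of the second step. It was at 40.1 RPM at 0 min, at 47.3 to 141 with a median of 61.5 in the early window, at 54.3 to 254 with a median of 86.3 in the middle one and at 75.1 to 278 with a median of 199 in the late one. Unlike TPS1, its late and early values overlapped, with the 300 and 315 min libraries (75.1 and 137 RPM) lying below the 15 min library (141 RPM). Its scatter about the fitted curve had an SD of 0.54 on the log2 scale, against 0.32 for TPS1.

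TSL1 (YML100W, chromosome XIII, 70624 to 73920) and TPS3 (YMR261C, chromosome XIII, 790205 to 793369) encode the paired large regulatory subunits. At 0 min they were nearly level, at 27.9 RPM for TSL1 and 28.5 RPM for TPS3, and these values rest on 55 and 56 reads. TSL1 went to 26.5 to 89.3 RPM early (median 43.7), 43.7 to 272 in the middle (median 104) and 86.1 to 312 late (median 242). TPS3 went to 26.8 to 39.2 RPM early (median 33.7), 38.3 to 80.1 in the middle (median 54.4) and 58.7 to 101 late (median 73.3). TPS3 had the narrowest course of the synthesis genes, and its late libraries lay above all of its early ones, whereas 1 late TSL1 library, at 300 min, lay below the highest early one.

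NTH1 (YDR001C, chromosome IV, 450220 to 452475) encodes the main neutral trehalase, which protein kinase A activates by phosphorylation, and NTH2 (YBR001C, chromosome II, 238941 to 241283) its paralog. NTH1 stood at 47.2 RPM at 0 min, at 35.7 to 68.7 early (median 51.6), at 54.5 to 155 in the middle (median 92.1) and at 116 to 192 late (median 167). NTH2 stood at 51.8 RPM, then at 38.1 to 64.3 (median 50.3), 44.8 to 138 (median 86.3) and 149 to 214 (median 176). Late and early values did not overlap for either gene, which is a description without the share of all genes. ATH1 (YPR026W, chromosome XVI, 615379 to 619014), the acid trehalase, which acts on trehalose outside the cytosol, was the lowest member at 0 min with 19.8 RPM from 39 reads, and was at 21.6 to 42.9 RPM early (median 29.4), 28.3 to 117 in the middle (median 47.8) and 82.7 to 155 late (median 129), again with no overlap between late and early. No annotated gene overlaps any of the 7. Words of 30 bases shared between members were found only for NTH1 and NTH2, at 4 of the 2227 words of NTH1, and 174 of their 175 values were whole reads within 0.01.

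**Figure D1:**
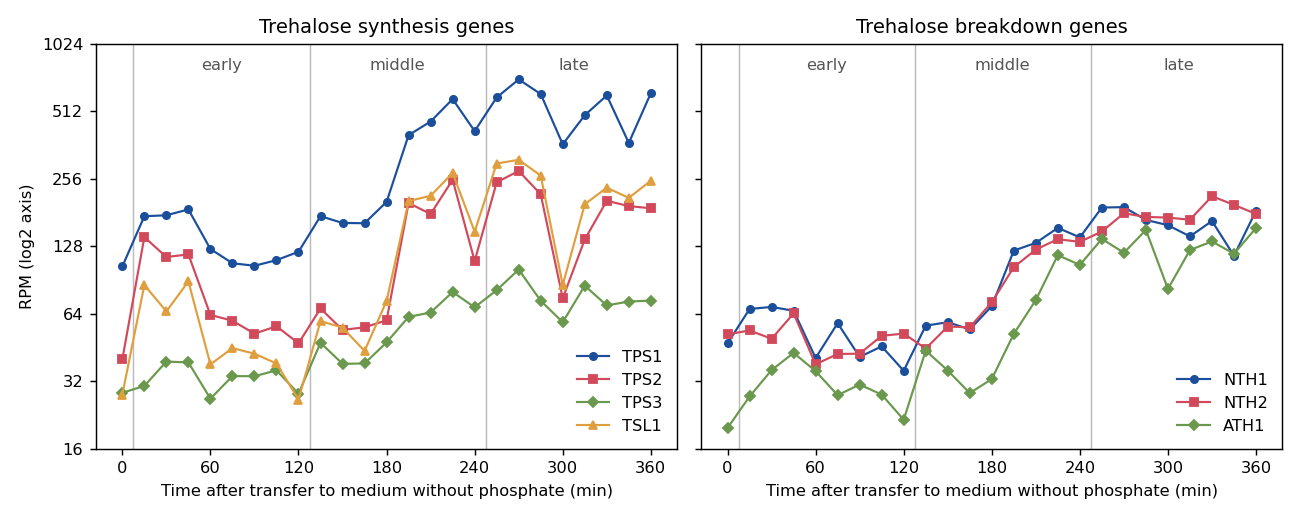
RPM of each gene on a log2 axis against time after transfer, 1 library per point, synthesis genes on the left and breakdown genes on the right; vertical lines divide 0 min and the early, middle and late windows. TPS1 is the highest gene throughout, TPS2 and TSL1 are raised at 15 to 45 min and dip at 240 and 300 min, and all 7 genes are higher late than at 0 min.

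At 15 to 45 min after transfer TPS2 and TSL1 had the largest fitted differences from 0 min among the 7 genes, but no difference passed the test. TPS2 was at 141, 115 and 118 RPM at 15, 30 and 45 min and at 63.3 at 60 min. TSL1 was at 86.1, 65.6 and 89.3 RPM in those 3 libraries and at 38.1 at 60 min. TPS1 was at 174, 176 and 187 RPM, then at 125. ATH1 was at 27.4, 35.9 and 42.9 RPM and at 35.5 at 60 min, when it was further above its 0 min value (0.84 on the log2 scale) than TPS2 (0.66) or TSL1 (0.45). NTH1 was at 67.3, 68.7 and 66.1 RPM, then at 40.7. TPS3 was at 30.5, 39.2 and 38.8 RPM, and NTH2 54.0, 49.5 and 64.3 RPM. The 15 to 45 min libraries, a stretch chosen after their values were seen, were above 0 min by 1.63 on the log2 scale for TPS2 (SE 0.53, limma adjusted p = 0.257) and by 1.51 for TSL1 (SE 0.53, adjusted p = 0.309). In that comparison 0 of 7 passed and 0.0961% of all genes were called higher. An unadjusted p under 0.05 was found for 4 of the 7, and for 576 of the 5201 genes tested. From there to 60 to 105 min the differences were -1.10 for TPS2 (SE 0.35, adjusted p = 0.166) and -0.96 for TSL1 (SE 0.35, adjusted p = 0.229). There 0 of 7 passed and 0.171% of all genes were called lower. An unadjusted p under 0.05 was found for 5 of the 7, and for 589 of the 5260 genes tested.

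Over the whole early window 0 of the 7 genes passed against high phosphate with limma, 0 also at an unadjusted p under 0.05, and 0.115% of the 5230 genes tested passed in either direction. A call here and below needs a Benjamini-Hochberg adjusted p under 0.05 over all genes and a log2 change of at least 1. The log2 changes ran from -0.13 for NTH2 (SE 0.20) to 0.87 for TPS2 (SE 0.48), with a median of 0.37 beside -0.07 for all genes. TPS2 had the 36th and TSL1 the 46th highest value of the 5230. Between 15 to 60 and 75 to 105 min, 0 of 7 passed, with 0.152% of 5261 genes called. TPS1 and TPS2 were then the 2 with an unadjusted p under 0.05, at -0.60 (SE 0.23) and -0.90 (SE 0.37). The number of all genes under that unadjusted cut is not given for this step.

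In the middle window 4 of 7 genes rose against high phosphate, where 6.33% of all genes did. TSL1 rose by 1.97 (SE 0.49, limma adjusted p = 0.00426), TPS1 by 1.45 (SE 0.29, adjusted p = 0.000564), TPS2 by 1.41 (SE 0.48, adjusted p = 0.0294) and ATH1 by 1.38 (SE 0.35, adjusted p = 0.00422). NTH1 at 0.93 (SE 0.26), TPS3 at 0.91 (SE 0.24) and NTH2 at 0.71 (SE 0.20) had adjusted p-values under the threshold and changes under the required size. The members' median was 1.38, against 0.17 for all genes. TPS2 did not pass with libraries centred (adjusted p = 0.0606) or with robust empirical Bayes (adjusted p = 0.0659), and 0 of 7 passed when 1 mean per window replaced the curve. The share of all genes called under these alternatives is not given. Whether members lost calls more often than other genes was not tested.

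Within the middle window the levels were higher after 180 min than before it. Between the 180 and 195 min libraries TPS2 went from 59.9 to 199.9 RPM, TSL1 from 73.0 to 204, TPS1 from 202 to 401, NTH1 from 69.3 to 123, NTH2 from 72.1 to 103 and TPS3 from 47.7 to 62.0. ATH1 was at 32.8 RPM at 180 min, 52.1 at 195, 73.7 at 210 and 117 at 225 min. The first of 3 consecutive libraries at least 1 log2 unit above 0 min came at 195 min for TPS1, TPS3, NTH1 and ATH1 and at 210 min for NTH2. For TPS2 and TSL1 it came at 15 min, through the raised early libraries. PHO84, the high-affinity phosphate transporter gene, met the same mark at 90 min and PHO5, an acid phosphatase gene, at 120 min.

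Tested as a step, 4 of 7 genes rose from 120 to 165 min to 180 to 210 min, where 3.0% of all genes did (158 of 5261). The median change over all genes was 0.19. The rises were 1.74 for TSL1 (SE 0.37, limma adjusted p = 0.00142), 1.21 for TPS2 (SE 0.37, adjusted p = 0.0154), 1.12 for TPS1 (SE 0.23, adjusted p = 0.00105) and 1.04 for NTH1 (SE 0.22, adjusted p = 0.0011). TSL1 had the 12th highest change of 5261 genes. NTH2 at 0.90 (SE 0.16), ATH1 at 0.68 (SE 0.24) and TPS3 at 0.62 (SE 0.19) were under the required size, with adjusted p-values of at most 0.0322. With libraries centred only TPS2 and TSL1 passed, without the 195 min library only TSL1 did, and without the 210 min library only TSL1 did. NTH1 also did not pass without the 120 min library (0.88). For these alternatives the share of all genes called is not given. In the next step, to 225 to 255 min, ATH1 alone rose, by 1.25 (SE 0.25, limma adjusted p = 0.000767), where 2.15% of all genes did. The median change over all genes was 0.16, and without the 180 min library the ATH1 value was 0.95. That ATH1 differs from the others in its timing was not tested.

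Outside these stretches no member passed. From 75 to 105 to 120 to 165 min 0 of 7 passed with limma, where 0.418% of all genes did, and 1 (TPS1, at 0.51, SE 0.23) had an unadjusted p under 0.05. From 225 to 255 to 315 to 360 min 0 of 7 passed, where 1.05% of all genes did, and 1 (NTH2, at 0.43, SE 0.16) had an unadjusted p under 0.05. The other 6 then lay between -0.10 and 0.14. For these steps too the number of all genes under the unadjusted cut is not given.

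In the late window all 7 genes rose against high phosphate, where 21.1% of the 5230 genes did. TSL1 rose by 2.96 (SE 0.49, limma adjusted p = 1.2e-05), ATH1 by 2.70 (SE 0.35, adjusted p = 1.7e-07), TPS1 by 2.35 (SE 0.29, adjusted p = 9.9e-08) and TPS2 by 2.16 (SE 0.48, adjusted p = 0.000417). Of the neutral trehalases, NTH2 rose by 1.80 (SE 0.20, adjusted p = 1.5e-08) and NTH1 by 1.79 (SE 0.26, adjusted p = 1.3e-06). TPS3 had the smallest rise of the 7, 1.42 (SE 0.24, adjusted p = 1.9e-05). TSL1 was 77th and TPS3 580th from the highest change. The members' median was 2.16, against 0.41 for all genes. With libraries centred the rises were 0.99 to 2.54 and TPS3, at 0.99, no longer passed, when 10.8% of all genes rose.

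Late against early, which does not use the 0 min library, 7 of 7 rose, where 21.2% of 5298 genes did. The median change over all genes was 0.49. The members' changes ran from 1.19 for TPS3 (SE 0.11) to 2.14 for TSL1 (SE 0.22). The smallest scatter belonged to NTH2, which rose by 1.93 (SE 0.09, limma adjusted p = 9.2e-18). TPS2 rose by 1.29 (SE 0.22, adjusted p = 4.0e-06), less than against 0 min. With libraries centred TPS2 (0.79) and TPS3 (0.69) fell short of the required size. The joint test of change within the course without phosphate passed for 7 of 7, where 42.0% of all genes did, and TPS3 did not pass it with libraries centred. How many of all genes passed with centring is not given for these comparisons.

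**Figure D2:**
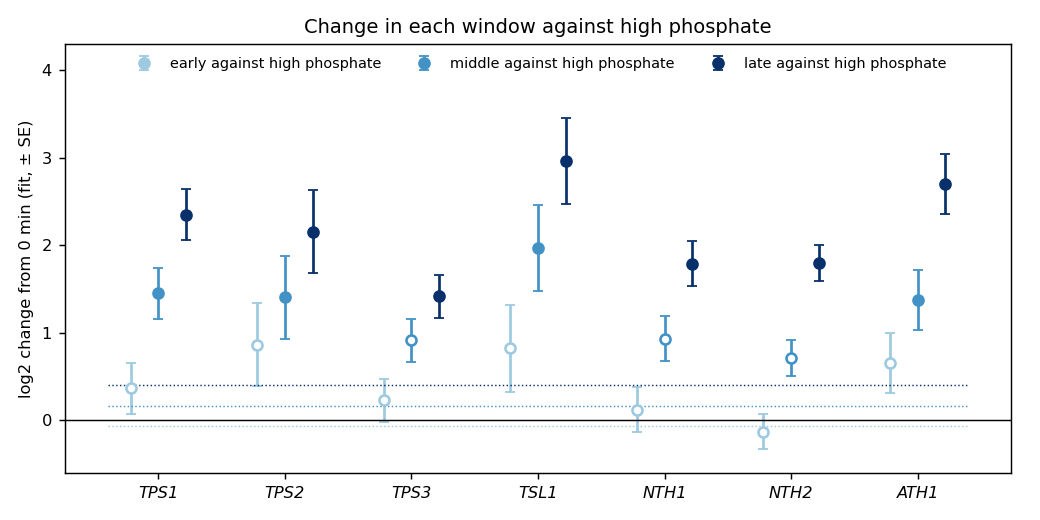
Log2 change of each gene from 0 min (points, ± SE from the fit) in the early, middle and late windows of 8 libraries each; filled points passed the test and dotted lines mark the median over all genes in the same comparison. No early value passed, 4 middle values did (TPS1, TPS2, TSL1 and ATH1) and all 7 late ones did, from 1.42 for TPS3 to 2.96 for TSL1.

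The order of levels was read per kilobase of annotated coding length, which assumes reads spread along the gene. At 0 min TPS1 had 70.0 RPM per kb, NTH2 22.1, NTH1 20.9, TPS2 14.9, TPS3 8.99, TSL1 8.48 and ATH1 5.45. In the late window the geometric means were 357 for TPS1, 76.0 for NTH2, 72.2 for NTH1, 67.3 for TPS2, 66.3 for TSL1, 34.6 for ATH1 and 24.05 for TPS3. TPS1, with late values of 246 to 478 RPM per kb, did not overlap any other member. NTH2, NTH1, TPS2 and TSL1 overlapped one another there. ATH1 (22.7 to 42.5) and TPS3 (18.6 to 31.9) overlapped each other and also the low ends of TPS2 (27.9 to 103) and TSL1 (26.1 to 94.5).

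Ratios between members were then compared within each library, since a ratio does not depend on how the library was scaled. TSL1 was level with TPS3 at 0 min, at a log2 RPM difference of -0.03. The difference averaged 0.59 ± 0.54 (SD, n = 8) early and 1.52 ± 0.45 (SD, n = 8) late, an increase of 0.93 (SE 0.25), with p = 0.00326 in an exact two-sided permutation test and 0.00816 after adjustment over 5 pairs. Per kb, TSL1 stood at 0.943 times TPS3 at 0 min and at 2.76 times late. The difference was 0.61 at 180 min and 1.72, 1.73 and 1.76 at 195, 210 and 225 min. It had been 1.496 at 15 min and -0.09 at 120 min, so high values stood at both ends of the course.

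TPS2 moved against TPS1 in the other direction. The difference TPS2 minus TPS1 was -1.38 at 0 min, -0.31 at 15 min, -0.85 ± 0.31 (SD, n = 8) over the early window and -1.55 ± 0.41 (SD, n = 8) late. The change of -0.71 (SE 0.18) had an exact permutation p = 0.00218, or 0.00816 adjusted. Late libraries ranged from -2.28 at 300 min to -0.94 at 345 min and overlapped the early range of -1.36 to -0.31. The early mean lay above both the 0 min value and the late mean.

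Among the trehalases a shift in the ratio of the paralogs was not detected. NTH1 minus NTH2 averaged 0.08 ± 0.34 early and -0.13 ± 0.33 late (SD, n = 8 each), a change of -0.21 (SE 0.17) with exact permutation p = 0.241, unadjusted and adjusted. NTH1 minus TPS1 changed by -0.32 (SE 0.12, exact permutation p = 0.0213, adjusted 0.0355), that is, from -1.39 ± 0.26 to -1.71 ± 0.23. That call was lost in 8 of the 16 cases when 1 library was left out (adjusted p up to 0.0679). ATH1 minus NTH1 changed by 0.38 (SE 0.17, exact permutation p = 0.0446, adjusted 0.0557), which does not pass, though it passed in 4 of 16 cases with 1 library left out. Libraries of a time course are not exchangeable draws, so these p-values describe the separation of the windows.

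**Figure D3:**
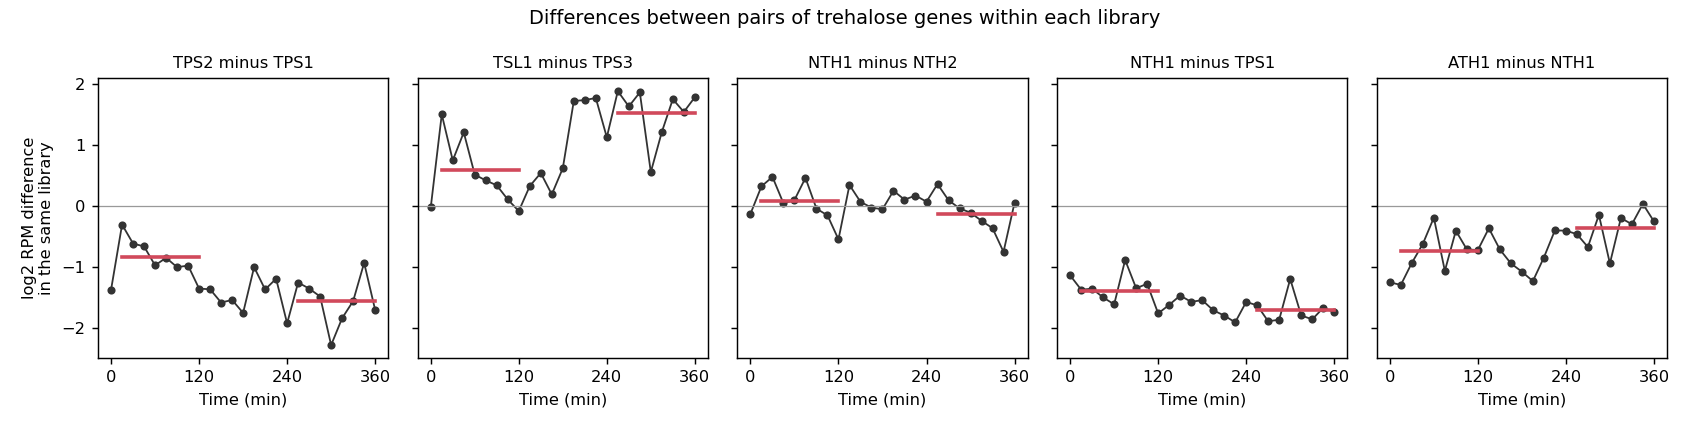
Log2 RPM difference between the genes of each pair in the same library (points) against time, with the mean of the early and of the late window as bars. TSL1 minus TPS3 goes from -0.03 at 0 min to a late mean of 1.52, TPS2 minus TPS1 from an early mean of -0.85 to a late one of -1.55, and NTH1 minus NTH2 has window means of 0.08 and -0.13, with single libraries between -0.75 at 345 min and 0.47 at 30 min.

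TPS2 and TSL1 also departed together from their neighbours in time, upward in some libraries and downward in others. The lowest departures, at 300 and 240 min, are described first. A departure is the log2 value of a library minus the mean of the libraries 15 min before and after, which was available for 22 libraries and read over the 4334 genes listed in all of them. At 300 min TSL1 was at 86.1 RPM, between 265 at 285 min and 197 at 315 min, a departure of -1.41 that was the lowest of all 4334 genes. TPS2 was at 75.1 RPM, between 218 and 137, with a departure of -1.21, the 3rd lowest. These values rest on 126 and 110 reads, whose counting errors are 0.13 and 0.14 on the log2 scale. ATH1 departed by -0.73, TPS1 by -0.59 and TPS3 by -0.43, whereas NTH1 (0.04) and NTH2 (0.01) did not depart.

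The 240 min library had the same feature. TPS2 departed by -1.19 there, the 4th lowest of 4334, and TSL1 by -0.94, the 9th lowest, while TPS1 was at -0.49, NTH1 at -0.29, ATH1 at -0.26, TPS3 at -0.24 and NTH2 at -0.10. The lowest gene there was SNZ3, of vitamin B6 synthesis, at -1.94, so the 10 lowest were of several kinds. Genes of the lists below that were among the 10 lowest, picked after their values were seen, were HSP42, a small heat shock protein gene, in both libraries (-0.97 and -1.03), the glycogen genes GLC3, for the branching enzyme (-0.95), and GLG1, for glycogenin (-1.13), at 240 min, and STF2, a hydrophilin gene (-1.02), at 300 min. The chaperone and hydrophilin list as a whole had a median departure of -0.07 at 240 and -0.31 at 300 min, and HSP26 departed by -0.07 and -0.11. Of the other glycogen genes listed in all libraries, GSY2 departed by -0.89 at 240 min, the 12th lowest. PIG2 was at -0.48, GDB1 at -0.37 and GPH1 at -0.35 there. At 300 min GSY2 was at -0.49, PIG2 at -0.62, GDB1 at -0.54 and GPH1 at -0.30. The median departure of all genes was 0.02 at 240 and 0.03 at 300 min, and that of ribosomal protein genes -0.06 and 0.00. Depth was 1417344 reads at 240 min, the median of the series, and 1464001 at 300 min. Array weights, which are lower for libraries lying further from the fitted curves over many genes, were 1.03 at 240 min and 0.54 at 300 min. They ran from 0.24 at 345 min to 2.11 at 30 min.

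TPS2 and TSL1 also departed upward, by 0.95 and 0.70 at 195 min (percentiles 99.7 and 98.6 of all genes). At 225 min they departed by 0.86 and 0.60 (percentiles 99.9 and 98.7), and those raised values enter the 240 min departures. TSL1 departed by 0.84 at 45 min, -0.73 at 60 and -0.85 at 120 min, and TPS2 by 0.47, -0.40 and -0.38. Across the 22 libraries the departures of TPS2 and TSL1 had an SD of 0.57 and 0.61, the 27th and 20th highest of 4334 genes, against 0.21 for NTH2. Their departures correlated with r = 0.89, those of TPS1 and TPS2 with r = 0.82, those of TSL1 and ATH1 with r = 0.81, and those of NTH1 and NTH2 with r = 0.48. Correlations here share libraries and neighbouring time points and are descriptions. With the 240 and 300 min libraries left out together, an alternative chosen after seeing the data, 7 of 7 genes passed late against high phosphate and late against early. All 7 had passed with those libraries in, and the libraries were picked for their low values. That outcome therefore says nothing about how firm the calls are, and the share of all genes passing is not given for it.

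**Figure D4:**
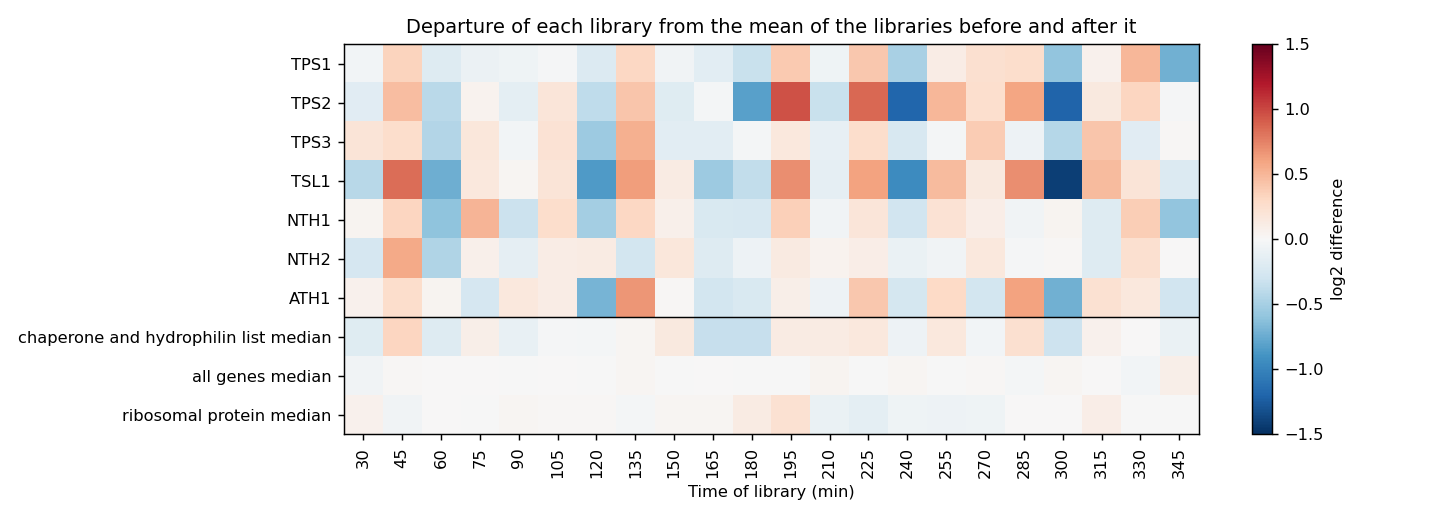
Departure of each library from the mean of the libraries before and after it (log2 difference, blue lower and red higher), by gene and time, for 22 libraries from 30 to 345 min; the lower 3 rows give medians over the chaperone and hydrophilin list, all genes and ribosomal protein genes. TPS2 and TSL1 are lowest together at 240 min (-1.19 and -0.94) and 300 min (-1.21 and -1.41), where the median of all genes is 0.02 and 0.03.

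The genes with the course most like each member over the 25 libraries were read by Pearson r on the log2 values, among 4327 other genes listed in all. For TPS1 they were GLK1, glucokinase (r = 0.99), GRE3, an aldose reductase (0.99), and SOL4, a 6-phosphogluconolactonase (0.99). TPS2 was most like RTC3 (0.95), HSP42 (0.95) and PIC2, a mitochondrial carrier (0.94), and TSL1 like CYC7, a cytochrome c isoform (0.98), HSP42 (0.98) and GLC3 (0.97). For TPS3 they were the disaggregase gene HSP104 (0.96), YKL066W (0.96) and the vacuolar calcium pump gene PMC1 (0.96). NTH1 was most like ACH1 (0.98), GLK1 (0.98) and YDR134C, annotated as a pseudogene (0.98), and ATH1 like RTN2 (0.98), GAD1, glutamate decarboxylase (0.98), and OM45 (0.98). NTH2 was most like CYT1, cytochrome c1 (0.99), ATG33 (0.98) and SDH4, a succinate dehydrogenase subunit (0.98). Between members r ran from 0.79 (TPS2 and NTH2) to 0.97 (TPS1 and NTH1). These values are descriptions over libraries that share 1 course.

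The surrounding pathway was read from lists in the late window against high phosphate, where 21.1% of all genes rose and 6.85% fell. Of the enzymes that supply glucose phosphates and UDP-glucose, 6 of 9 rose and 0 fell, with a median log2 change of 1.68. GLK1 rose by 2.91 (SE 0.27), the phosphoglucomutase gene PGM2 by 3.35 (SE 0.46) and the hexokinase gene HXK1 by 3.01 (SE 0.42). Of 9 tested genes of the glycogen branch, which draws on the same UDP-glucose, 8 rose and 0 fell, with a median of 1.92, led by GPH1, glycogen phosphorylase, at 3.17 (SE 0.34), GLC3 at 3.35 (SE 0.45) and GDB1, the debranching enzyme, at 3.25 (SE 0.45). With libraries centred these counts were 6 of 9 and 6 of 9, GLG1 and PIG1 being the ones lost. With that centring 10.8% of all genes rose and 11.8% fell.

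Regulators of the neutral trehalase rose in 5 of 8 cases and fell in 0, with a median of 1.26. DCS2, related to the Dcs1 protein that inhibits Nth1, rose by 3.34 (SE 0.38), and BCY1, the inhibitory subunit of protein kinase A, by 1.16 (SE 0.17). With centring 3 rose, TPK2 and BCY1 being lost. Of 10 genes of the cAMP and Ras inputs 4 rose and 0 fell (median 0.67). Among them were the G protein gene GPA2 by 2.05 (SE 0.18), the phosphodiesterase gene PDE1 by 1.41 (SE 0.21) and the receptor gene GPR1 by 1.02 (SE 0.18). But with centring 2 rose and 1 fell, PDE1 and GPR1 being lost, where 10.8% of all genes rose and 11.8% fell. Stress transcription factors and kinases rose in 4 of 12 cases and fell in 0 (median 0.53). The kinase gene RIM15 rose by 1.99 (SE 0.32) and MSN4 by 2.23 (SE 0.42), PHO85 was at 0.89 (SE 0.18), under the required size, and with centring 2 rose. Chaperones and hydrophilins of dried or heated cells rose in 9 of 9 cases (median 3.34), also with centring, including HSP26 by 4.20 (SE 0.21), GRE1 by 5.06 (SE 0.27) and SIP18 by 5.62 (SE 0.33). Of 3 trehalose uptake genes only MAL11 could be tested, at 0.90 (SE 0.54), and did not pass. At the step to 180 to 210 min, where 3.0% of all genes rose, 5 of 9 supply genes, 5 of 9 glycogen genes, 5 of 9 chaperones and hydrophilins, 3 of 8 trehalase regulators, 1 of 12 stress regulators and 0 of 10 cAMP and Ras genes rose.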

How the data were processed

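The deposited table holds log2 of RPM as made by the authors, and the antilogs of each library sum to 1000000. The submitters' processing notes name Bowtie and R64. Neither the counting program nor the strand setting is stated in the labels. The lowest value in each library was taken as 10 reads, which makes 94.1% of values whole within 0.01, and values below it are blank. Of 6701 rows, 51 carried no gene name and no value.

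limma 3.58.1 in R 4.3.3 was fitted to all genes listed in at least 13 libraries and in 3 of 8 in each window (5298 genes), with a variance trend, an indicator for 0 min and a natural cubic spline of 4 degrees of freedom. Steps between stretches of the course were fitted with 1 mean per stretch. Blanks were left missing. Residuals had 19 degrees of freedom and a median lag-1 autocorrelation of -0.13. The scripts were tested on simulated data. Pairs were compared by exact permutation (12870 arrangements). The members, lists, pairs and stretches were chosen with earlier results of these data known. Named genes were the 7 members, the 3 largest test statistics in each list, and the 3 highest r for each member. The value of 1 list gene that this rule names is not reported here. Alternatives were other splines, centring, filters, weights, robust fits, window means, a minimum change of 0.58 and libraries left out; array weights gave the 0 min library the mean weight. Figures used Python 3.11.15 and matplotlib 3.10.9.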

Additional observations from a re-analysis of the deposited data

Results flagged for a closer look

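In the late window the 300 min library stood apart for TSL1, at 86.1 RPM, and for ATH1, at 82.7 RPM. The gap to the next lowest library, divided by the range of the 8 libraries, was 0.645 for TSL1 and 0.577 for ATH1, above the Dixon value of 0.526. Of 21 sets of 8 libraries (7 genes in 3 windows) these 2 were flagged, and chance flags about 1 in 20. The sets are stretches of a time course rather than replicates. TPS2 was also lowest at 300 min, at 75.1 RPM, without passing that mark, while NTH1 and NTH2 departed from their neighbours by 0.04 and 0.01.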

How the results depend on the processing

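No paired analysis was possible because each time has 1 library and the replicate numbers only name libraries. The counts of 7 late against high phosphate, 7 late against early and 7 for change over time moved by at most 1.5 times under every alternative run, as did the count of 0 in the early window. In the middle window 4 became 7 with a minimum change of 0.58 and 0 with window means. The share of all genes called is not given for any alternative in this section. For 180 to 210 against 120 to 165 min, 4 became 2 with centring and 7 with the minimum of 0.58, and ranged from 1 to 5 with 1 library left out. For 225 to 255 against 180 to 210 min the range was 0 to 1. With the middle in place of the late window, the call for TPS2 minus TPS1 held. The other ratio changes were 0.41 for TSL1 minus TPS3, -0.26 for NTH1 minus TPS1, 0.034 for NTH1 minus NTH2 and -0.0042 for ATH1 minus NTH1. None of these was past the threshold and the last 2 were of opposite sign. With 1 library left out, NTH1 minus TPS1 ranged from -0.39 to -0.24 and ATH1 minus NTH1 from 0.30 to 0.46. Values that never passed and changed sign were, with centring, TSL1 (-0.026) and NTH1 (-0.028) for 120 to 165 against 75 to 105 min. With stretches chosen after seeing the data they were TPS3 (-0.15, 60 to 105 against 15 to 45 min) and NTH2 (0.10, 15 to 45 against 0 min). With 1 library left out, the ranges for 120 to 165 against 75 to 105 min were -0.045 to 0.30 for ATH1, -0.033 to 0.24 for NTH1, -0.10 to 0.074 for TPS2 and -0.063 to 0.32 for TSL1. For 315 to 360 against 225 to 255 min they were -0.20 to 0.025 for NTH1, -0.20 to 0.12 for TPS1, -0.48 to 0.12 for TPS2, -0.11 to 0.020 for TPS3 and -0.36 to 0.14 for TSL1. For 75 to 105 against 15 to 60 min the range was -0.063 to 0.12 for TPS3. No blank affected a pair, so setting blanks to 5 reads gave no value. Depth limits ATH1 most, with 26 reads at 120 min. The cause of these shifts was not tested.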
